A study of Rattus norvegicus with 12 samples.

Results

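Activity-regulated immediate early genes were examined in the motor cortex of 12 rats (Rattus norvegicus) profiled by poly(A) RNA sequencing. The genes were set by a list of 9 Ensembl identifiers with a name for each. They are Fos (ENSRNOG00000008015), Fosb (ENSRNOG00000046667), Egr1 (ENSRNOG00000019422), Egr2 (ENSRNOG00000000640), Arc (ENSRNOG00000043465), Nr4a1 (ENSRNOG00000007607) and Npas4 (ENSRNOG00000020009), with Junb and Dusp1. Of these, 7 were among the 16534 features of the table; Junb and Dusp1 were not analysed here. The identifiers carry the names given in that list, because no table used here pairs rat Ensembl identifiers with symbols, so the names were not checked a second way. All 7 passed the filter of a mean of at least 0.5 CPM (a read count scaled to the size of its library), as did 14985 features in all.

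The 4 groups had 3 rats each. Stimulated PD rats carried a Parkinson's disease (PD) model made with 6-OHDA, a toxin taken up by catecholamine neurons, and had their cortex stimulated. The design text gives 130 Hz, 1 hour a day for 2 weeks, delivered wirelessly by a graphene array at primary motor cortex, and it names 3 groups where the labels give 4. PD rats had the model without stimulation. Stimulated control rats had stimulation without the model, and whether they had the same schedule is not stated. Control rats had neither. Strain, sex, age, hemisphere, a sham array and the interval from the last stimulation to tissue collection are not stated in those sources.

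Immediate early genes are transcribed within minutes of strong synaptic activity, without need of new protein synthesis, and their mRNAs are short-lived. Calcium entry through NMDA receptors and L-type channels activates the MAP kinase and CaM kinase pathways, which act on the promoter-bound factors SRF and CREB. In cortex the mRNAs of Fos, Arc and Egr1 are widely used as marks of recent neuronal activity. Most of the encoded proteins are themselves transcription factors. Fos and Fosb are subunits of AP-1, which they form with Jun proteins. Egr1 and Egr2 are zinc finger factors, Nr4a1 is an orphan nuclear receptor and Npas4 is a basic helix-loop-helix factor induced selectively by calcium entry in neurons. Arc is the exception, a cytoskeleton-associated protein that acts in removal of AMPA receptors from synapses.

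Promoter windows from 250 bases before to 50 bases after the start site were found in RefSeq (build GRCr8, which is not the build named by the submitters) for 5 of the 7 genes, by symbol. The windows of Egr1, Egr2, Nr4a1 and Npas4 are shown because they span what was found: both elements searched, 1 of them, and neither. They lie at chr18:26736828-26737127 (plus strand), chr20:21054392-21054691 (minus strand), chr7:134259888-134260187 (plus strand) and chr1:211716053-211716352 (minus strand). Each is printed on the strand of its gene; capitals mark the serum response element core bound by SRF (the CArG box) and TGACG, the core of the cyclic AMP response element bound by CREB, both searched on both strands, so that TGACG on the opposite strand reads CGTCA.
Egr1: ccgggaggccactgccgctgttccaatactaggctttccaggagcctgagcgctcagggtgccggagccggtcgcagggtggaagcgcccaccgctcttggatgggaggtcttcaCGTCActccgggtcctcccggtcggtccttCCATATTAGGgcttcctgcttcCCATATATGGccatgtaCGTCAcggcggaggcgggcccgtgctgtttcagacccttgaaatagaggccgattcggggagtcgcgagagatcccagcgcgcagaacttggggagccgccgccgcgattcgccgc
Egr2: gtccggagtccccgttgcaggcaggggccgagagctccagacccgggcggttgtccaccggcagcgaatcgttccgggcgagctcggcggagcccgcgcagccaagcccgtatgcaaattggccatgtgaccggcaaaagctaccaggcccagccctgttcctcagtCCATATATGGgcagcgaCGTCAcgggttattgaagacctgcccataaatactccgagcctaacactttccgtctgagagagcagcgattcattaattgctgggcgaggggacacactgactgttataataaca
Nr4a1: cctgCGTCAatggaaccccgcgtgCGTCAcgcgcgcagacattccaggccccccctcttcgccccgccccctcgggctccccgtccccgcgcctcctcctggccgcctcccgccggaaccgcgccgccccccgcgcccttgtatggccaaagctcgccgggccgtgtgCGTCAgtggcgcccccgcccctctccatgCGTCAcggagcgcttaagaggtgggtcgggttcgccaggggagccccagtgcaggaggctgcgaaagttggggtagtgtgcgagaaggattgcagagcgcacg
Npas4: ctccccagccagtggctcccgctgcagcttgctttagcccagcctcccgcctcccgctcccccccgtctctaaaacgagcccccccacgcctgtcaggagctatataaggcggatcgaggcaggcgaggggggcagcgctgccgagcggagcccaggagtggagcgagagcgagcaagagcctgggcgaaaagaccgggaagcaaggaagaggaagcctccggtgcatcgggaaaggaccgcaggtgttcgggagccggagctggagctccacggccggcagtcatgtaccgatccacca

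A CArG box was found in 1.64% of all 33469 windows of this length and TGACG in 21.2%. Egr1 had 2 CArG boxes and 2 TGACG cores, Egr2 had 1 of each, and Nr4a1 had 4 TGACG cores and no CArG box. Npas4 and Fosb had neither in their windows. The full element TGACGTCA, found in 1.83% of windows, and the AP-1 site TGANTCA, found in 7.33%, had no match in the 5 windows. GCGNGGGCG, a site of the Egr family found in 4.98%, matched once in Nr4a1 and in no other of the 5. TATAAA (14.2%) matched in Fosb alone, on the opposite strand at -180 to -175 from the start site. Only the exact string was searched, so similar stretches are not counted. The full element, where present, also counts as a TGACG match; letters in a window are a description and not a measured binding site. The reads themselves were mapped to mRatBN7.2, per the submitters' processing notes.

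Levels of the 7 genes varied together from rat to rat, and differed widely between rats of the same group. The rat labelled stimulated control 1 and PD rat 1 held the highest and the next highest level of every one of the 7 genes, in either order, and stimulated PD rat 3 held the lowest level of all 7. Against the control mean, the 7 levels of stimulated control rat 1 ran from 2.44 times (Egr1) to 20.1 times (Npas4), those of PD rat 1 from 2.25 times (Nr4a1) to 6.40 times (Egr2), and those of stimulated PD rat 3 from 0.0244 times (Egr2) to 0.418 times (Fosb). Libraries held 42905441 to 62082830 counted reads, and the 7 genes had 74 to 32686 reads per library apart from Egr2 in stimulated PD rat 3, with 14. In stimulated control rat 1, 0.130% of the library's reads lay outside the features of the table, against 0.0190% to 0.0659% in the other 11 libraries; the part of this in its levels was not tested. Tissue and cell type markers could not be checked without symbols. In bulk tissue, fewer cells of a type and less RNA per cell cannot be told apart.

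**Figure D1:**
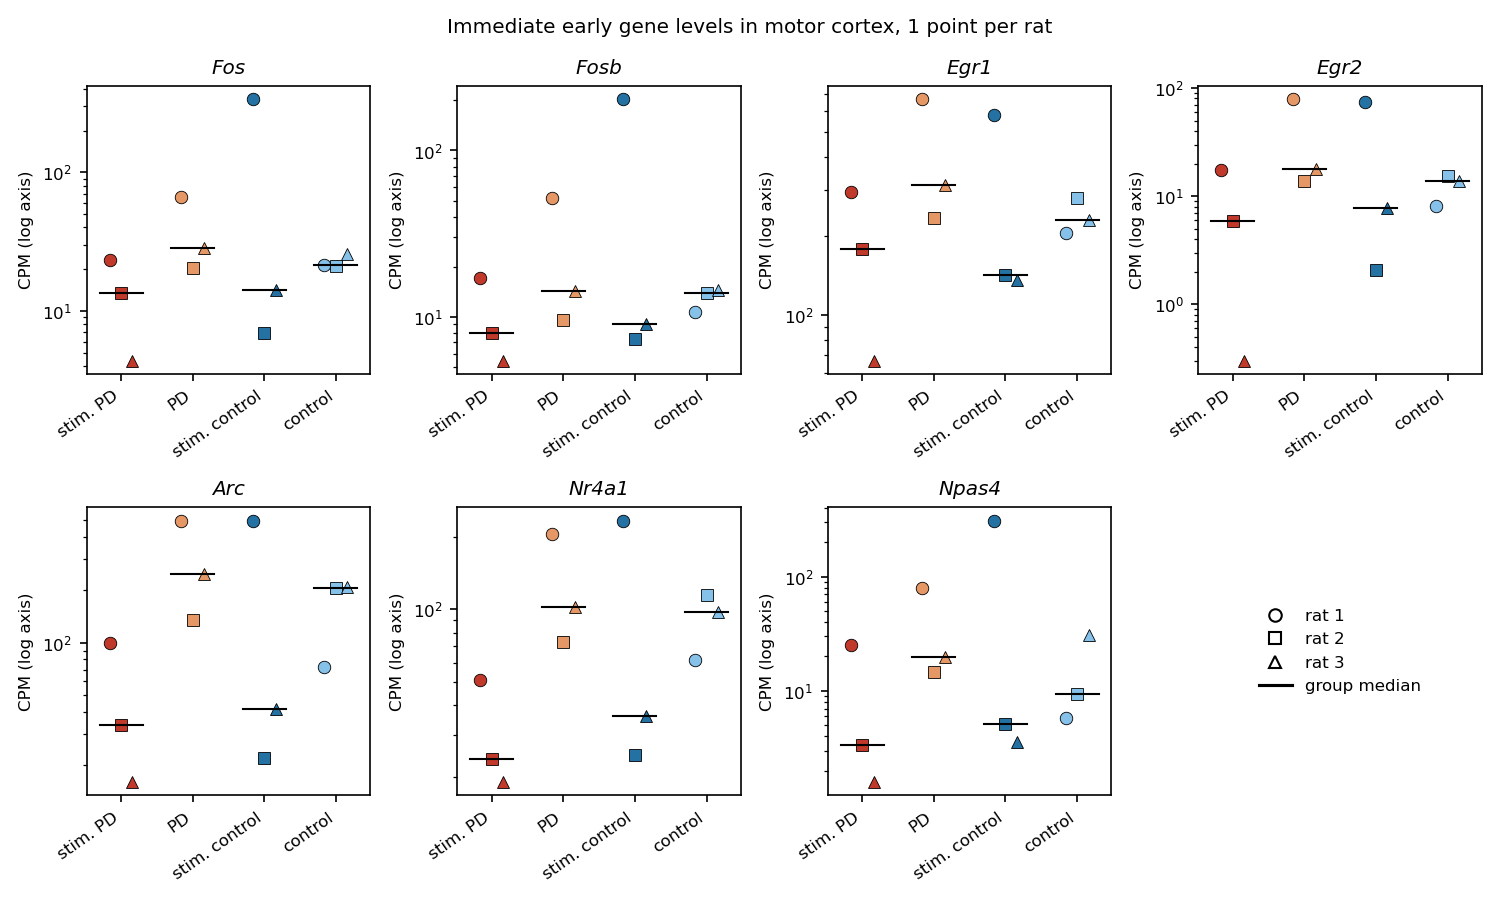
Level of each gene in CPM (vertical log axis) in each rat of the 4 groups; symbols give the rat's number in its group and bars the group median. Stimulated control rat 1 and PD rat 1 lie at the top of every panel, and stimulated PD rat 3 lies at the bottom of every panel.

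Arc, the synaptic effector, had the largest estimated difference of the 7 genes between stimulated PD and PD rats by limma with all rats. Egr2 was close to it, and this ranking changed with the setting. Over the alternative settings Egr2 reached -3.61 on the log2 scale and Arc -3.44. Arc had 99.6, 33.6 and 15.9 CPM in the 3 stimulated PD rats, against 135 to 499 CPM in PD rats (499, 135 and 248 CPM). In stimulated controls it had 496, 21.9 and 41.8 CPM, against 72.6, 205 and 208 CPM in controls. Every stimulated PD rat lay below every PD rat. Among unlesioned rats the groups overlapped, since stimulated control rat 1 lay above all 3 controls and the other 2 stimulated controls lay below all 3.

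Nr4a1, the orphan nuclear receptor, had the same order of group medians. Its levels were 50.5, 23.9 and 19.0 CPM in stimulated PD rats, against 205, 73.3 and 102 CPM in PD rats. Stimulated controls had 234, 24.6 and 36.0 CPM, against 61.6, 115 and 97.7 CPM in controls. All 3 stimulated PD rats were below all 3 PD rats and also below all 3 controls.

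The zinc finger factors Egr1 and Egr2 differed in how far they ranged. Egr1 had 295, 178 and 66.8 CPM in stimulated PD rats, against 667, 234 and 315 CPM in PD rats, and 581, 142 and 135 CPM in stimulated controls, against 205, 279 and 230 CPM in controls. Egr2 had 17.4, 5.87 and 0.301 CPM in stimulated PD rats, against 79.0, 13.9 and 17.9 CPM in PD rats. It had 74.9, 2.06 and 7.85 CPM in stimulated controls, against 8.04, 15.3 and 13.7 CPM in controls. The highest and lowest of the 12 rats differed by 9.98 times for Egr1, the narrowest range of the 7 genes, and by 262 times for Egr2, the widest. The lowest Egr2 level rests on 14 reads, with a 95% exact Poisson interval of 0.165 to 0.505 CPM that covers counting error only, and it lay below every other rat's level. For both genes stimulated PD rat 1 lay above PD rat 2, so stimulated PD and PD rats overlapped.

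Npas4 and the AP-1 subunits Fos and Fosb were highest in stimulated control rat 1 by a wide margin. Npas4 had 25.2, 3.37 and 1.59 CPM in stimulated PD rats, against 79.6, 14.7 and 19.7 CPM in PD rats, and 308, 5.09 and 3.605 CPM in stimulated controls, against 5.78, 9.45 and 30.7 CPM in controls. Fos had 23.4, 13.5 and 4.37 CPM in stimulated PD rats, against 66.3, 20.6 and 28.5 CPM in PD rats, and 339, 6.93 and 14.2 CPM in stimulated controls, against 21.3, 21.1 and 25.8 CPM in controls. Fosb had 17.1, 8.03 and 5.44 CPM in stimulated PD rats, against 51.8, 9.55 and 14.4 CPM in PD rats. It had 204, 7.31 and 8.99 CPM in stimulated controls, against 10.7, 13.8 and 14.5 CPM in controls. In stimulated control rat 1, Fos stood 5.11 times, Fosb 3.93 times and Npas4 3.87 times above PD rat 1, the next highest, whereas Egr1, Egr2, Arc and Nr4a1 differed between these rats by 1.01 to 1.15 times, with PD rat 1 the higher for Egr1, Egr2 and Arc.

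Means and medians ordered the groups differently. By group medians, 6 of the 7 genes ran from PD through control and stimulated control to stimulated PD, and Egr1 had the last 2 in the other order. By means, Fos stood highest in stimulated controls, with 13.8 ± 9.51 CPM in stimulated PD, 38.4 ± 24.4 in PD, 120 ± 189 in stimulated control and 22.7 ± 2.65 CPM in control rats (SD, n = 3). Groups next to each other in the order of medians overlapped for all 7 genes. Of all features, 29.1% had no overlap between PD and control rats, and 8.88% had none between stimulated control and control rats. Between stimulated PD and stimulated control rats 41.4% had none. Overlap was thus the more frequent outcome over all features and is not particular to the 7 genes.

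**Figure D2:**
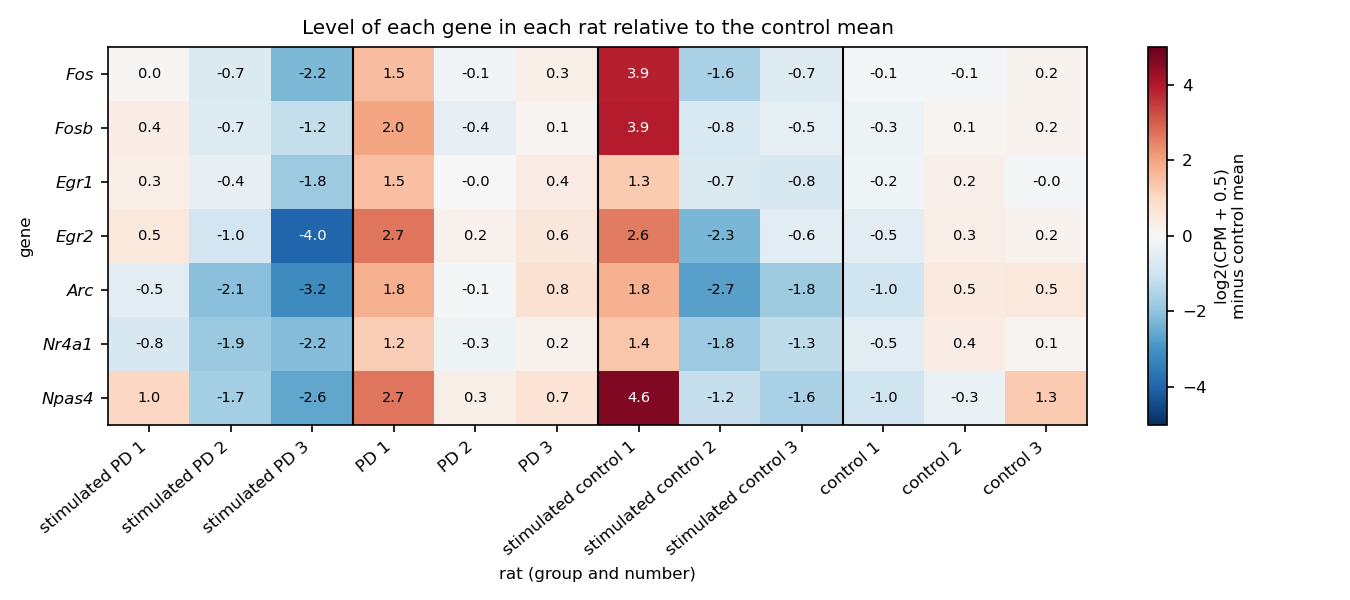
Level of each gene (rows) in each rat (columns, by group) as log2(CPM + 0.5) minus the mean of the 3 controls; red is higher and blue lower than that mean. Stimulated PD rats 2 and 3, stimulated control rats 2 and 3 and unstimulated control rat 1 are below the control mean for all 7 genes. PD rat 1, PD rat 3 and stimulated control rat 1 are above this mean for all 7.

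Most stimulated rats had lower levels than any unstimulated rat. For 6 of the 7 genes, 4 of the 6 stimulated rats lay below all 6 unstimulated rats, and for Nr4a1 5 of 6 did. The 4 were the same rats for every gene, stimulated PD rats 2 and 3 and stimulated control rats 2 and 3. Of all features tested, 2.38% had at least 4 of 6 stimulated rats below every unstimulated rat, and 4.5% had at least 4 of 6 above, as none of the 7 genes did. The margin differed between genes. For Egr2 it was narrow, with 7.85 CPM in the highest of the 4 and 8.04 CPM in the lowest unstimulated rat. It was also narrow for Fosb, with 8.99 and 9.55 CPM, and for Npas4, with 5.09 and 5.78 CPM. For Arc these values were 41.8 and 72.6 CPM. Within unlesioned rats, all 7 genes had 2 stimulated controls below every control and 1 above every control, a pattern of 4.08% of features; 5.66% had the mirror pattern. These counts were made after the levels had been seen and carry no test.

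Stimulated PD rats were set against PD rats to ask what stimulation does in the model. Arc averaged 49.7 ± 44.1 CPM with stimulation, against 294 ± 187 CPM without it (SD, n = 3 each). Its log2 fold change was -2.74 with an SE of 1.01 (limma Benjamini-Hochberg adjusted p = 0.257). Nr4a1 averaged 31.1 ± 17.0 CPM with stimulation, against 127 ± 69.5 CPM without it. Its log2 fold change was -2.002 with an SE of 0.70 (limma adjusted p = 0.245). Both genes were lower in all 3 stimulated PD rats than in any PD rat, but neither passed at an adjusted p under 0.05.

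None of the 7 genes passed limma's moderated test on log2(CPM + 0.5) after adjustment over all features, and 0% of features did. By edgeR none of the 7 passed and 2 had an unadjusted p under 0.05. Shares of all features at an unadjusted p under 0.05 were counted for limma only, with all rats or without stimulated control rat 1. DESeq2 gave no p-value, adjusted or not, for Fos, Fosb and Npas4 in any comparison, so its counts cover the other 4 genes. Of these 4 none passed by DESeq2 and 2 had an unadjusted p under 0.05, where DESeq2 called 907 of all features. By limma 2 genes, Arc and Nr4a1, had an unadjusted p under 0.05, where 5.71% of features were lower at that p. The same 2 had no overlap between the groups, where 4.26% of features did not overlap and were lower. All 7 estimates were negative, as were 40.3% of all estimates, and all 7 were below -1, beyond a 2-fold lower level, where 0.254% of features were. The median of the 7 was -2.002 on the log2 scale, against 0.08 over all features tested.

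The other estimates in this comparison were -2.62 for Egr2, -2.30 for Npas4, -1.55 for Fos, -1.27 for Egr1 and -1.05 for Fosb, with limma adjusted p from 0.293 to 0.550. Their 95% intervals all reached above 0, from -5.47 to 0.88 for Npas4 and from -2.59 to 0.06 for Egr1, so a several-fold lower level and an equal level were both within them. The direction was negative for all 7 genes in each of the 25 alternative settings. Leaving out stimulated control rat 1, which enters only the estimate of spread, left the estimates as they were and gave 6 of 7 genes an unadjusted p under 0.05, with 0.000579 for Nr4a1 and 0.00168 for Arc and limma adjusted p of 0.167 and 0.220. In that fit 4.7% of features were lower at an unadjusted p under 0.05. Leaving out stimulated PD rat 3 or PD rat 1 brought the median of the 7 to -1.37 or -1.56, with no gene at an unadjusted p under 0.05 by limma.

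In unlesioned rats the direction changed with the rats included. Between stimulated controls and controls, 4 estimates were negative and 3 positive (41% of all features were negative), from -0.91 (Arc) to 0.88 (Fosb), with a median of -0.08 against 0.03 over all features. None of the 7 passed limma's test, with an adjusted p of 0.9995 for each, and 0% of features did. None had an unadjusted p under 0.05 by limma, where 1.79% of features did, and the groups overlapped for all 7, where 8.88% of features had no overlap. By edgeR and DESeq2 on the read counts all 7 estimates were positive. None of the 7 passed by edgeR, with 1 at an unadjusted p under 0.05, and none of the 4 with a p-value passed by DESeq2, with 0 at that p. No share of all features at that p was counted for either tool. Without stimulated control rat 1 all 7 limma estimates were negative, from -2.25 for Arc to -0.64 for Fosb, with a median of -1.38. Without stimulated control rat 2 only 1 was negative (median 1.01), and without stimulated control rat 3 or control rat 2 only 2 were (medians 0.28 and 0.09). Without control rat 3, 3 were negative (median 0.02). In the fit that left out stimulated control rat 1, Arc and Nr4a1 had an unadjusted p of 0.0115 and 0.00688 (limma adjusted p = 0.9998 for both), where 0.434% of features were lower at an unadjusted p under 0.05.

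**Figure D3:**
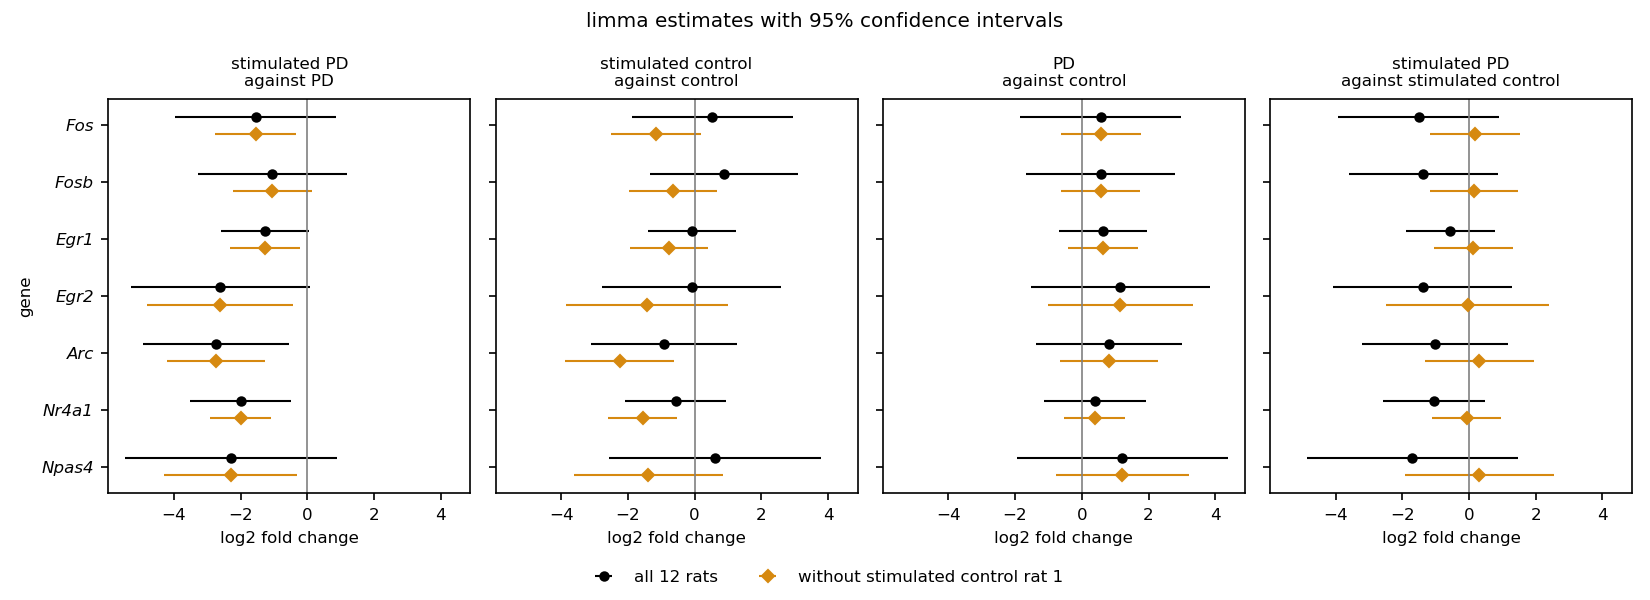
Log2 fold change of each gene by limma with its 95% confidence interval, for 4 comparisons, with all 12 rats (black circles) and without stimulated control rat 1 (orange diamonds). In stimulated PD against PD rats all 7 points lie left of -1 in both fits; in stimulated control against control rats, Fos, Fosb and Npas4 lie right of 0 with all rats and left of 0 without that rat.

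The difference between both stimulation effects, the interaction, was negative for all 7 genes, from -2.92 (Npas4) to -1.19 (Egr1) on the log2 scale, where 44.9% of all estimates were negative. None passed limma's test (adjusted p = 0.834 for each, 0% of features called) or had an unadjusted p under 0.05, where 4.13% of features did. By edgeR 3 of 7 genes and by DESeq2 0 of 4 had an unadjusted p under 0.05, where the share of all features was not counted. None of these genes passed after adjustment, and over all features edgeR called 0 and DESeq2 30. Without stimulated control rat 1 the median of the 7 interaction estimates was -0.50 instead of -1.93, and limma adjusted p-values were at least 0.892. A difference between lesioned and unlesioned rats in the effect of stimulation was thus not shown. Over the 24 alternative settings the median ran from -3.51 to -0.03, and in 1 of them only 5 of the 7 estimates were negative. Leaving out stimulated control rat 2 gave a median of -2.76 and 3 genes at an unadjusted p under 0.05 by limma. The share of all features at that p was not counted in this fit. Averaged over lesioned and unlesioned rats, stimulation gave negative estimates for all 7 genes by limma, where 38.7% of features were negative, and for 4 of them by edgeR and DESeq2. The estimate for Arc was -1.83 with an SE of 0.71 (limma adjusted p = 0.348). The estimate for Nr4a1 was -1.29 with an SE of 0.49 (limma adjusted p = 0.348). These were the 2 genes with an unadjusted p under 0.05 by limma, where 3.59% of features were lower at that p; edgeR gave 0 such genes of 7 and DESeq2 0 of 4. None of the 7 passed after adjustment by limma or edgeR and none of the 4 by DESeq2. Over all features, 0% passed by limma, 0 by edgeR and 289 by DESeq2. Without stimulated control rat 1 the averaged estimates ran from -2.50 for Arc to -0.84 for Fosb, and 6 of 7 genes had an unadjusted p under 0.05, where 2.1% of features were lower at that p. The smallest of these was 0.000149 for Nr4a1, with a limma adjusted p of 0.320. Leaving out certain other rats lowered the count of genes with an unadjusted p under 0.05 by limma. It was 0 without PD rat 1 (median -0.47, against -0.84 with all rats) or stimulated PD rat 3 (-0.46). It was also 0 without stimulated control rat 2 (-0.51) or stimulated control rat 3 (-0.49). Without control rat 2 the count was 0 as well, though the median was more negative (-0.92). In these fits 5 to 7 of the estimates were negative. Without control rat 3, 1 gene had an unadjusted p under 0.05 by limma.

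The 6-OHDA model without stimulation was compared with controls to see whether levels differ with the lesion alone. All 7 estimates were positive, where 64.9% of all features were negative, from 0.38 for Nr4a1 to 1.22 for Npas4, with a median of 0.63 against -0.11 over all features. None passed limma's test (smallest adjusted p 0.565), none had an unadjusted p under 0.05 by limma or edgeR, nor did any of 4 by DESeq2, and PD and control rats overlapped for all 7 genes. In this comparison limma called 4.38% of features, 24.1% had an unadjusted p under 0.05, and 29.1% did not overlap. Egr2 averaged 36.9 ± 36.5 CPM in PD and 12.3 ± 3.80 CPM in control rats (SD, n = 3 each). Its log2 fold change was 1.15 (95% interval -1.53 to 3.83, limma adjusted p = 0.605). Without PD rat 1 the median of the 7 was 0.20 and 2 estimates were negative, and without PD rat 2 the median was 1.06 with none negative. The signs were the same with all rats under every scaling tried.

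Among stimulated rats the same contrast of lesioned with unlesioned rats was negative for all 7 genes, from -1.70 for Npas4 to -0.56 for Egr1, where 63.7% of features were negative. None passed limma's test (smallest adjusted p 0.360), where 1.45% of features were called. None had an unadjusted p under 0.05 by limma, where 26.3% of features did, against 2 of 7 genes by edgeR and 0 of 4 by DESeq2. The share of all features at that p by edgeR or DESeq2 was not counted. The groups overlapped for all 7 genes, where 41.4% of features had no overlap. Leaving out stimulated control rat 1, the 7 estimates ran from -0.06 to 0.31, with 5 positive. Without stimulated PD rat 3, 6 were negative with a median of -0.77, against -1.36 with all rats, and without stimulated control rat 2 all 7 were, with a median of -2.19 and 2 genes at an unadjusted p under 0.05. Averaged over stimulated and unstimulated rats, the lesion gave estimates of -0.47 to 0.04, of which 6 were negative, as were 66.1% of all features. None of the 7 passed limma's test, where 23% of features did, and none had an unadjusted p under 0.05 by limma or edgeR, nor did any of 4 by DESeq2, where 38.2% of features did by limma. The direction again depended on single rats. Without stimulated control rat 1 all 7 were positive (0.16 to 0.76), without PD rat 1 all 7 were negative (-0.75 to -0.18), and without stimulated PD rat 3, 3 were negative (median 0.14, against -0.24 with all rats). With any other rat left out 4 to 7 were negative. With TMM scaling 4 were negative.

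Stimulated PD rats were also set against controls, a comparison that shares its libraries with those above. All 7 estimates were negative, from -1.93 (Arc) to -0.48 (Fosb), as were 60.3% of all features, and 0 of 7 passed limma's test with all 4 groups fitted, where 0.0334% of features did. Nr4a1 averaged 31.1 ± 17.0 CPM in stimulated PD and 91.3 ± 27.1 CPM in control rats (SD, n = 3 each). Its log2 fold change was -1.62 with an SE of 0.70 (limma adjusted p = 0.218). It was the only one of the 7 with an unadjusted p under 0.05 by limma, where 13.3% of features were lower at that p, while edgeR gave 0 of 7 and DESeq2 0 of 4. It was also the only one without overlap, where 25.9% of features were lower without overlap. No gene had an unadjusted p under 0.05 without stimulated PD rat 2 or 3, PD rat 3, or control rat 2 or 3. Without stimulated PD rat 3 the median of the 7 was -0.33, against -1.08 with all rats, and the estimate for Egr2 was -0.22, against -1.46. Without stimulated PD rat 1 the median was -2.03. Fitting only these 2 groups gave Nr4a1 a limma adjusted p of 0.0277, in a fit that called 2859 of 14985 features against 5 with all groups.

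The spread behind these intervals was large. The SD of log2(CPM + 0.5) between rats of a group, pooled over the 4 groups, was 0.90 for Egr1, 1.04 for Nr4a1, 1.495 for Arc, 1.52 for Fosb, 1.64 for Fos, 1.83 for Egr2 and 2.16 for Npas4. The median of all tested features was 0.23, and at least 99.2% of features had a smaller SD than each of the 7. Within single groups, the SD of Fos was 1.17 in stimulated PD, 0.86 in PD, 2.94 in stimulated control and 0.16 in control rats (n = 3), where the median feature had 0.14, 0.29, 0.15 and 0.13 in the same groups. For Npas4 it was 1.89, 1.28, 3.48 and 1.19. For each of the 7 genes the controls had the smallest spread of the 4 groups and stimulated controls the largest, and whether these spreads differ was not tested.

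**Figure D4:**
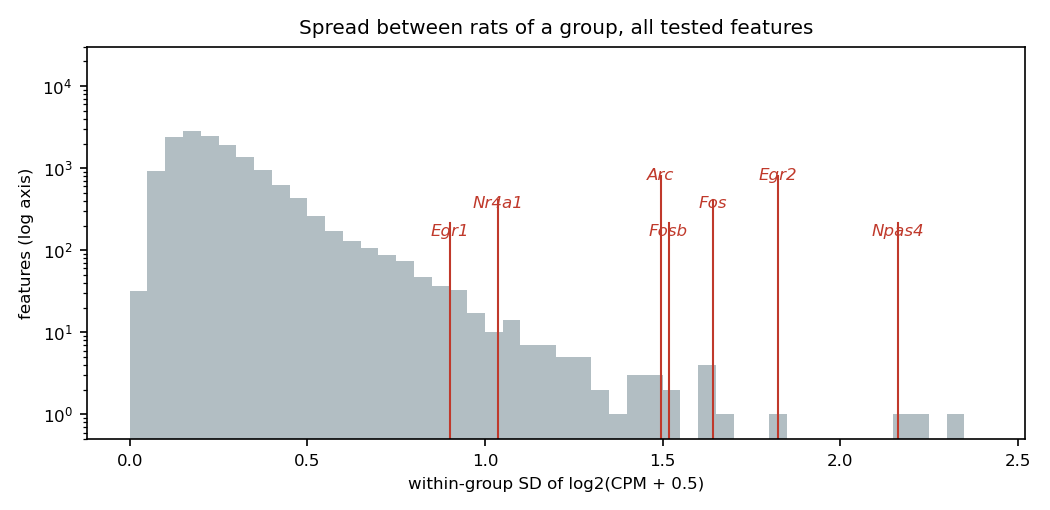
Number of features (vertical log axis) by the SD of log2(CPM + 0.5) between rats of a group, pooled over 4 groups, for all 14985 tested features; red lines mark the 7 genes. Egr1, at 0.90, is the lowest of the 7, and 116 features, these 7 included, have an SD as large.

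Across rats, levels of the 7 genes were closely correlated. Over the 12 rats, the 21 pairs of genes had a Pearson's r of 0.79 (Fosb with Arc) to 0.98 (Arc with Nr4a1) and a Spearman's rho of 0.85 (Fosb with Nr4a1) to 0.98 (Egr1 with Egr2), on log2(CPM + 0.5). Permutation p-values, adjusted by Benjamini-Hochberg over the 21 pairs, were at most 0.00094 for r and 0.00081 for rho (two-sided, 100000 permutations, whose smallest unadjusted p is 1e-05). Rats were permuted over all 4 groups together, so differences shared by a group enter these p-values. Without the 2 rats farthest from the median of the first gene of a pair, r was 0.82 to 0.98, and without stimulated control rat 1 it was 0.85 to 0.98. With each group's mean removed, so that only differences between rats of a group remained, r over the 12 rats was 0.87 to 0.98. This r pools the 4 groups and includes stimulated control rat 1, and no p-value was made for it. Whether the relation held in each single group was not tested. Among controls, Fos was highest in rat 3 and Egr1 in rat 2. The values of a rat come from 1 library, and a shared property of a library would enter every pair.

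**Figure D5:**
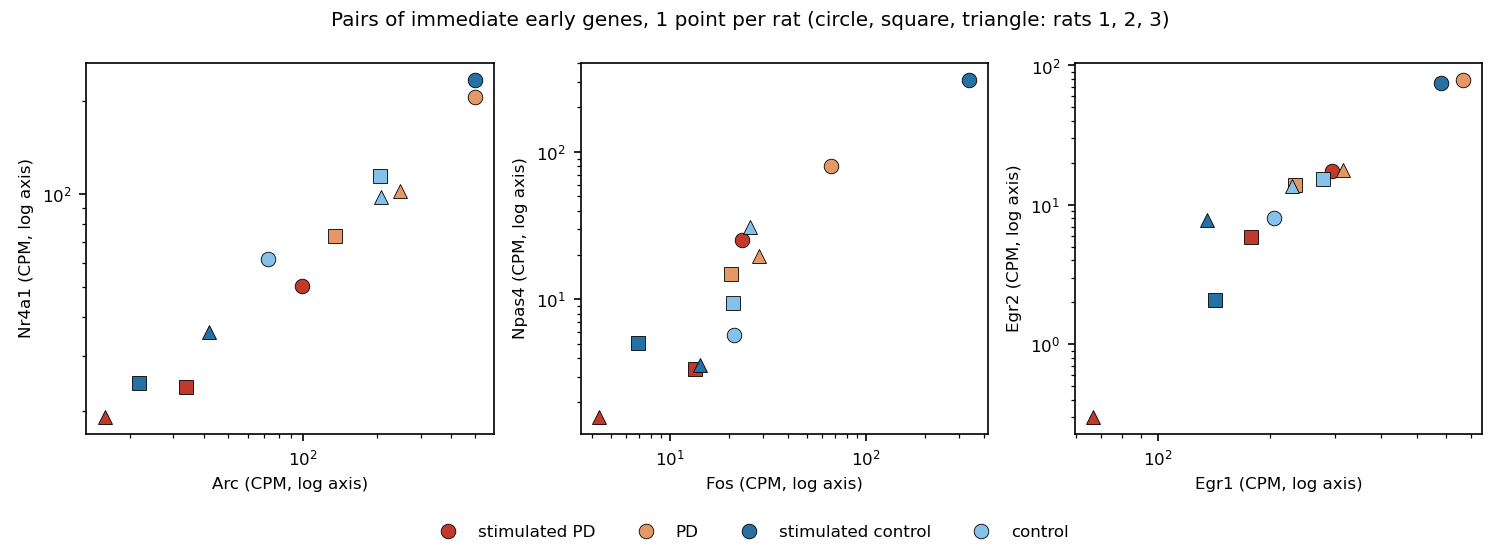
Levels in CPM (both axes log) of 3 pairs of genes, 1 point per rat, coloured by group, with circles, squares and triangles for rats 1, 2 and 3. Arc and Nr4a1 have the closest relation of the 21 pairs (r = 0.98), and stimulated control rat 1 stands apart for Fos with Npas4 at 339 and 308 CPM.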

How the data were processed

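Poly(A) RNA was sequenced from motor cortex, 1 library per rat, with a stranded kit per the labels' protocols. The submitters' processing notes name Trim Galore, STAR, featureCounts and the build mRatBN7.2. The deposited values are CPM calculated by the authors. No source used here states the annotation release, the strand setting or the tool that scaled the counts. All 12 columns were matched to samples by their short descriptions (0 unmatched). Dividing by each column's smallest value gave whole reads for 100% of values (tolerance 0.001 read), and no library has a value of 0. Levels therefore come only from features read in all libraries.

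Features averaging 0.5 CPM or more were kept, and log2(CPM + 0.5) was fitted by limma 3.58.1 in R 4.3.3. The model had a term for each group over the 12 libraries (8 residual degrees of freedom) and a trended prior variance. P-values are two-sided and adjusted by Benjamini-Hochberg over 14985 features; fold changes on this scale understate changes of low levels. The fit was tested on simulated data that set the same variability between rats for every feature and group. That test does not cover the large and unequal spreads of the 7 genes. edgeR 4.0.16 (quasi-likelihood) and DESeq2 1.42.0 on the recovered reads were alternatives. Over the whole table edgeR called 475 features for PD against control, 15 for stimulated PD against stimulated control, 5 for stimulated PD against control and 3265 for the averaged lesion, and 0 in the other comparisons. DESeq2 called 2037, 2019, 1083 and 4366 features in the same comparisons, 907 for stimulated PD against PD, 289 for averaged stimulation, 30 for the interaction and 0 for stimulated control against control. Its default filter on outlying counts was on, and it gave no p-value for 3 of the 7 genes. Titles number the rats of each group, taken here as separate animals, and rats that share a number in different groups are not taken as pairs.

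The genes, lists and comparisons were chosen with earlier results of these data known. All listed genes found are named. The 14 further gene lists (other activity-regulated genes, their inducing pathway, stress genes, cell type and region markers) are not analysed here, since 0 of the table's identifiers are paired with symbols in the reference tables. The rule for similar genes asked for features with a symbol, so identifiers are given instead.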

Additional observations from a re-analysis of the deposited data

How the results depend on the processing

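Each count of genes called was recomputed in 24 or 25 alternative settings (pseudocount, filter, scaling, variance trend, groups fitted, tool, block, and each rat left out). No gene was called in any of them (DESeq2 gave values for 4 of the 7, without Fos, Fosb and Npas4) for PD against control, stimulated PD against stimulated control, stimulated control against control, the interaction or either averaged effect. For stimulated PD against PD rats, 1 gene (Nr4a1, limma adjusted p = 0.0347) was called when stimulated control rat 1 and PD rat 1 were both left out, a setting chosen after seeing their levels; over all 25 settings its adjusted p ran from 0.0347 to 0.580. For stimulated PD against control rats, Nr4a1 was called when only these groups were fitted (1 gene), where 2859 of 14985 features were called. It was also called without stimulated control rat 1 and PD rat 1 (1 gene, limma adjusted p = 0.0457). The share of all features called in that last fit is not given here. With each rat left out in turn the count was 0 in all 8 comparisons.

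With a replicate block on the rat number, 0 of the 7 genes were called in every comparison. For stimulated PD against PD rats 4 had an unadjusted p under 0.05 by limma, against 2 without the block. The share of all features at that p was not counted in the block fit. The 18 pairs of libraries that share a title number across groups had a median correlation of deviations from the group mean of -0.02 (-0.46 to 0.36). The 36 pairs with different numbers had a median of 0.01 (-0.37 to 0.50). The pairs share libraries and vary widely, so these values cannot decide whether rats were paired. The short descriptions number some PD and stimulated PD rats differently from the titles, and pairing by those numbers was not examined. The block changed no call among the 7.

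The number of features called over the whole table moved far more: from 4 to 2037 for PD against control (657 as reported), 2 to 2258 for stimulated PD against stimulated control (217), 0 to 2943 for stimulated PD against PD (0), 2 to 2859 for stimulated PD against control (5), 0 to 30 for the interaction (0), 1898 to 4609 for the averaged lesion (3451) and 0 to 534 for averaged stimulation (0). For PD against control, the median estimate over all features was 0.04 with TMM scaling and -0.11 without it. Precision is limited by 3 rats a group; the lowest level of the 7 genes rests on 14 reads and the next on 74.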

Other observations

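Features that followed the 7 genes were sought by the Pearson's r of log2(CPM + 0.5) over the 12 rats with the mean of the 7 genes' z-scores. Of the other 14978 features tested, 10 (0.0668%) had an r of at least 0.9, and 5 of these 10 also reached it without stimulated control rat 1. None had an r of -0.9 or below. The closest were ENSRNOG00000015719 (r = 0.98, and 0.97 without that rat) and ENSRNOG00000023896 (r = 0.97, and 0.96 without it). ENSRNOG00000015719 ranged from 6.91 CPM in stimulated PD rat 3 to 83.7 CPM in stimulated control rat 1, and ENSRNOG00000023896 from 19.1 to 80.8 CPM in the same rats. The 7 genes had an r of 0.90 (Fosb) to 0.95 (Egr2) with the mean of the other 6. The features were chosen for this likeness after their values were seen, the 12 points share their libraries with the 7 genes, and no test was made.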
